A study of Homo sapiens with 9 samples.

Results

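The unfolded protein response of the endoplasmic reticulum was followed through 10 genes in ALL-SIL cells, an established line of T cell acute lymphoblastic leukemia (T-ALL). The genes were *HSPA5*, *HSP90B1*, *CALR*, *SDF2L1*, *PDIA4*, *ERN1*, *ATF6*, *XBP1*, *HERPUD1* and *DNAJB9*, and every array probe whose transcript identifier maps to one of these symbols was taken, whatever its values. This gave 11 probes, since *HSP90B1* has 2 and the other genes have 1 each. All 10 genes could be tested, out of 14679 genes with a symbol and a tested probe. ALL-SIL cells had been electroporated with control siRNA, with *PHF6* siRNA1 or with *PHF6* siRNA2, and RNA of 3 samples per group was measured on 9 one-colour Agilent arrays. The groups share the cell line, the electroporation and the time point, given as 96 h in most labels and as 72 h in a free-text description. The study's methods call the samples of a group independent, but neither they nor the labels say whether these were separate cultures, so that p-values measure the spread between these samples, which may be technical. The knockdown is transient and partial, and every sample comes from 1 cell line.

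The unfolded protein response matches the folding capacity of the endoplasmic reticulum (ER) to the load of proteins that enter it. It has 3 membrane sensors. IRE1, encoded by *ERN1*, splices the mRNA of the transcription factor *XBP1*. ATF6 moves to the Golgi, where it is cleaved to an active transcription factor. PERK, encoded by *EIF2AK3*, slows translation and favors that of *ATF4*. ATF6 and spliced XBP1 raise the transcription of ER chaperones and of the machinery that returns misfolded proteins to the cytosol for degradation, while the PERK branch acts through ATF4 and DDIT3. In lymphocytes the response is best known from plasma cells, which need XBP1 to secrete antibody.

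Elements known to switch on genes of this response were searched as letters in the promoters of the 10 genes. The promoters are shown because they separate the genes by a feature that the arrays do not measure. Whether a matched element acts in these cells was not tested. RefSeq windows on GRCh38.p14, each of 250 bases before to 50 after a transcription start, held all 10 genes, with a second window for *PDIA4* and for *XBP1*. The ER stress element was searched as CCAAT and CCACG with 9 bases between them, on both strands, and its short form, element II, as ATTGG and CCACG with 1 base between them. The ER stress element was found in *HSPA5*, *HSP90B1*, *CALR* and *XBP1*, that is in 4 of the 10 genes, against 0.0916% of 27305 genes (0.0769% of 35116 windows). Element II was found in *HERPUD1* and *SDF2L1*, against 0.0696% of all genes. The 8 letters TGACGTGG, the core of the element bound by XBP1, were in none of the 10 genes and in 0.927% of all genes. The 10 genes were chosen as genes of this response, so these matches describe them and are not a test. All 3 motifs overlap in CCACG, which TGACGTGG holds as its reverse complement CGTGG. *PDIA4*, *DNAJB9*, *ERN1* and *ATF6* had no match in these windows, which says only that these letters are not there. The elements, in the orientation of the gene and in capitals, are as follows, with *HSP90B1* holding one on each strand.
*HSPA5*: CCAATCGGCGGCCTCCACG
*HSP90B1*, forward: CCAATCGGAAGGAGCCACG
*HSP90B1*, reverse: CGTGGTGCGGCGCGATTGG
*XBP1*: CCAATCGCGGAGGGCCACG
*CALR*, reverse: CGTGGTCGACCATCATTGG
*HERPUD1*, element II: ATTGGGCCACG
*SDF2L1*, element II, reverse: CGTGGACCAAT

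In *HSPA5* the element lies 66 to 48 bases before the start, and in *XBP1* 52 to 34 bases before it. The elements of *HSP90B1* lie 194 to 176 and 89 to 71 bases before the start, the element of *CALR* 225 to 207 bases, that of *HERPUD1* 117 to 107 bases and that of *SDF2L1* 188 to 178 bases. Whole windows are given for *HSPA5* and *HERPUD1*, which had the largest differences between replicate numbers, and for *ERN1*, which had the largest difference between siRNAs and control. Capitals mark the element.
*HSPA5*, chr9:125241294-125241593, minus strand: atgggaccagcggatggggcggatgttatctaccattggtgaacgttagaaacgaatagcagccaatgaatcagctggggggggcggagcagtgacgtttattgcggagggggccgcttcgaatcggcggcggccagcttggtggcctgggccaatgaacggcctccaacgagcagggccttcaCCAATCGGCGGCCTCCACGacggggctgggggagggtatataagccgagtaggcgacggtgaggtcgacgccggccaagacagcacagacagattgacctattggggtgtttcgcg
*HERPUD1*, chr16:56931892-56932191, plus strand: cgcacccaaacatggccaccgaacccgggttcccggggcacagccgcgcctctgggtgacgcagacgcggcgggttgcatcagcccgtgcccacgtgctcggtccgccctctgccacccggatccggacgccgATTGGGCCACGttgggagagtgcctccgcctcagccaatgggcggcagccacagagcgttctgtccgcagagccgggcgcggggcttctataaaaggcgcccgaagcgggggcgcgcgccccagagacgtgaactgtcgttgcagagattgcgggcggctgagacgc
*ERN1*, chr17:64130095-64130394, minus strand: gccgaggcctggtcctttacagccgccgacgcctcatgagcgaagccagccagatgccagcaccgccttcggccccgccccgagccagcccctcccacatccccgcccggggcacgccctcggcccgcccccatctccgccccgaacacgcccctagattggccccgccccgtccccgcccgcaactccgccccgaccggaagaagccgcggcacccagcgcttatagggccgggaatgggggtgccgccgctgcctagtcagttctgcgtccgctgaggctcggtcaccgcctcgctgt

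The arrays were checked first. Of 57176 probes, 33585 exceeded background clearly, by the scanner's flag, on 3 or more arrays and were tested, and 29659 to 33734 probes did so per array. *PHF6* (A_23_P171385), the targeted gene, had normalized log2 values of 11.07, 11.17 and 10.86 in control replicates 1, 2 and 3, of 9.39, 9.69 and 9.12 with siRNA1, and of 9.20, 9.28 and 9.14 with siRNA2. Both siRNAs together lowered it by a log2 difference of -1.73 (SE 0.14, limma adjusted p = 0.00247), in 6 of 6 arrays. Of the T lineage markers, 10 of 10 with a probe were well above background on all 9 arrays, as were 3 of 5 B lineage markers, 3 of 5 plasma cell markers, 2 of 4 myeloid and 2 of 3 erythroid markers. Of the plasma cell markers, *IRF4* and *TNFRSF17* were not well above background on any array, whereas *MZB1*, itself an ER protein, was between 14.15 and 14.77. In each group replicates 1 and 2 shared a first slide and replicate 3 had a second, so that replicate 3 and its slide cannot be told apart. Arrays of like number departed from their group means in the same way, and fits with the replicate number as a block are therefore given where they change a call. All values below are VSN-normalized values in generalized log2 units, nearly equal to log2 where probes are bright, and a level is never compared between probes. In this bulk RNA, fewer cells with a transcript and less transcript per cell cannot be told apart.

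Each of the 11 probes was well above background on every array. The question of the siRNA comparison was whether loss of *PHF6* moved the unfolded protein response. Without the block, limma called none of the 10 genes, and it called 3 of 33585 probes, 0.00893%, *PHF6* among them. That fit leaves the spread between replicate numbers in the error. With the replicate block limma called 919 probes, 623 higher and 296 lower. For the 10 genes the median difference was -0.06, against -0.04 for all genes tested, with 3 genes higher and 7 lower. *ERN1* was the exception in size, with a log2 difference of 0.61, and it was called when the fit had a block for replicate number.

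**Figure D1:**
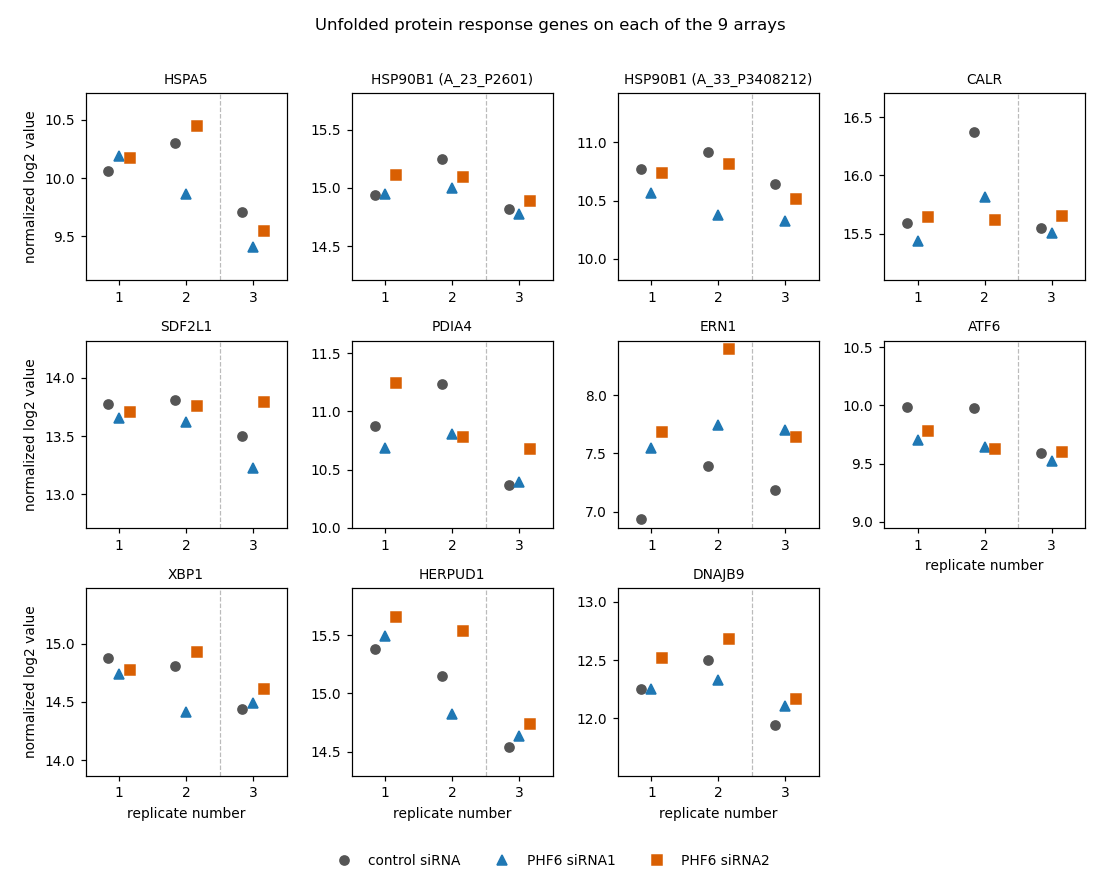
Normalized log2 value (vertical axis, same span in every panel) of each of the 11 probes on each array, by replicate number (horizontal axis), with control siRNA as grey circles, *PHF6* siRNA1 as blue triangles and *PHF6* siRNA2 as orange squares; the dashed line separates the slides. For *ERN1* the 6 siRNA arrays sit at 7.54 or above and the 3 control arrays at 7.39 or below, while *HSPA5* and *HERPUD1* are lowest in replicate 3 in all 3 groups.

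Among the sensors, *ERN1* (A_23_P164042) encodes IRE1, the kinase and nuclease that splices *XBP1*. Its control values were 6.93, 7.39 and 7.19 in replicates 1, 2 and 3. With siRNA1 they were 7.54, 7.75 and 7.70, and with siRNA2 they were 7.68, 8.40 and 7.64. All 6 siRNA arrays lay above all 3 control arrays, as was the case for 1.84% of probes with values on every array. The group means (± SD, n = 3 each) were 7.17 ± 0.23 for control siRNA, 7.66 ± 0.11 for siRNA1 and 7.91 ± 0.42 for siRNA2. Both siRNAs together gave a log2 difference of 0.61 (SE 0.18), 53.1% more on the linear scale, which did not pass limma's test without the block (adjusted p = 0.644, unadjusted p = 0.0063). In limma with a block for replicate number its adjusted p was 0.0311, and 1.85% of all probes were called higher in that fit. Within replicate numbers, the mean of the siRNA arrays exceeded the control by 0.68 in replicate 1, 0.68 in replicate 2 and 0.48 in replicate 3, so that the difference was present on both slides. With the slide as a block its adjusted p was 0.172. The blocked call was lost without the arrays of replicate 1 (adjusted p = 0.22) and without those of replicate 2 (adjusted p = 0.108). Combined with other normalizations, the block gave adjusted p-values from limma of 0.022 to 0.0664, and the call held in 3 of the 5.

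*ATF6* (A_23_P62907), the sensor that is itself a transcription factor, had control values of 9.98, 9.98 and 9.59 in replicates 1, 2 and 3. They were 9.70, 9.64 and 9.52 with siRNA1 and 9.78, 9.63 and 9.60 with siRNA2. It was below its own control in 5 of 6 siRNA arrays, yet the groups overlapped, and the log2 difference was -0.21 (95% interval -0.49 to 0.08, limma adjusted p = 0.758). With the replicate block the interval of *ATF6* was -0.40 to -0.0065, and limma did not call it (adjusted p = 0.216). *XBP1* (A_23_P120845), whose mRNA is the substrate of IRE1, had control values of 14.88, 14.81 and 14.44, siRNA1 values of 14.74, 14.41 and 14.49, and siRNA2 values of 14.77, 14.93 and 14.61. Its log2 difference was -0.05 (95% interval -0.37 to 0.26), with 3 siRNA arrays above and 3 below their own control. The interval of *XBP1* with the replicate block was -0.29 to 0.18. The probe was read as *XBP1* mRNA of either form, since which part of the transcript it covers was not examined here. The third sensor, *EIF2AK3*, is described with its branch below.

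Among the chaperones, *HSPA5* (A_24_P98411) encodes BiP, the Hsp70 of the ER lumen that binds the sensors at rest. It had control values of 10.06, 10.30 and 9.71, siRNA1 values of 10.19, 9.87 and 9.41, and siRNA2 values of 10.17, 10.45 and 9.54, and the groups overlapped. The log2 difference for both siRNAs was -0.09 (95% interval -0.59 to 0.42, limma adjusted p = 0.956). With the replicate block its interval was -0.34 to 0.17. *HSP90B1* encodes GRP94, the Hsp90 of the ER. Its first probe (A_23_P2601) ranged from 14.78 to 15.25 over the 9 arrays and its second (A_33_P3408212) from 10.33 to 10.91. The first probe differed by -0.03 and the second by -0.22, the second being below its own control in 6 of 6 siRNA arrays. Neither was called, with limma adjusted p-values of 0.973 and 0.74, so the probes of this gene shared a sign and differed in size. With the replicate block the interval of the second probe was -0.42 to -0.02, and limma did not call it (adjusted p = 0.192).

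*CALR* (A_33_P3292854), a lectin chaperone that holds glycoproteins for folding, had control values of 15.59, 16.37 and 15.55. With siRNA1 they were 15.44, 15.81 and 15.51, and with siRNA2 they were 15.64, 15.62 and 15.65. Control replicate 2 stood above all other arrays of this probe, and without it the log2 difference for both siRNAs went from -0.22 to 0.04. *SDF2L1* (A_23_P6344), a cofactor of the BiP cycle, ranged from 13.22 to 13.81 and differed by -0.07. *PDIA4* (A_23_P42802), a disulfide isomerase, ranged from 10.36 to 11.24 and differed by -0.06, with 3 siRNA arrays above and 3 below their own control. The 95% intervals of these 3 genes ran from -0.63 to 0.18, from -0.37 to 0.23 and from -0.51 to 0.39. Fitted with the replicate block, they ran from -0.52 to 0.08, from -0.30 to 0.16 and from -0.36 to 0.24.

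The members that act in ER-associated degradation were the other genes with a positive difference. *HERPUD1* (A_23_P54846), a membrane protein that organizes the retrotranslocation complex, had control values of 15.38, 15.15 and 14.54, siRNA1 values of 15.49, 14.82 and 14.64, and siRNA2 values of 15.65, 15.54 and 14.74. *DNAJB9* (A_23_P258944), a BiP cochaperone that also acts on IRE1, had control values of 12.25, 12.51 and 11.94, siRNA1 values of 12.26, 12.33 and 12.11, and siRNA2 values of 12.52, 12.68 and 12.16. For each gene 5 of 6 siRNA arrays exceeded the control of their replicate number, and the groups overlapped. The log2 differences were 0.12 (95% interval -0.46 to 0.71) and 0.11 (95% interval -0.24 to 0.46), and limma called neither (adjusted p = 0.943 and 0.915). Fitted with the replicate block, the intervals were -0.13 to 0.37 and -0.09 to 0.31, again without a call.

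**Figure D2:**
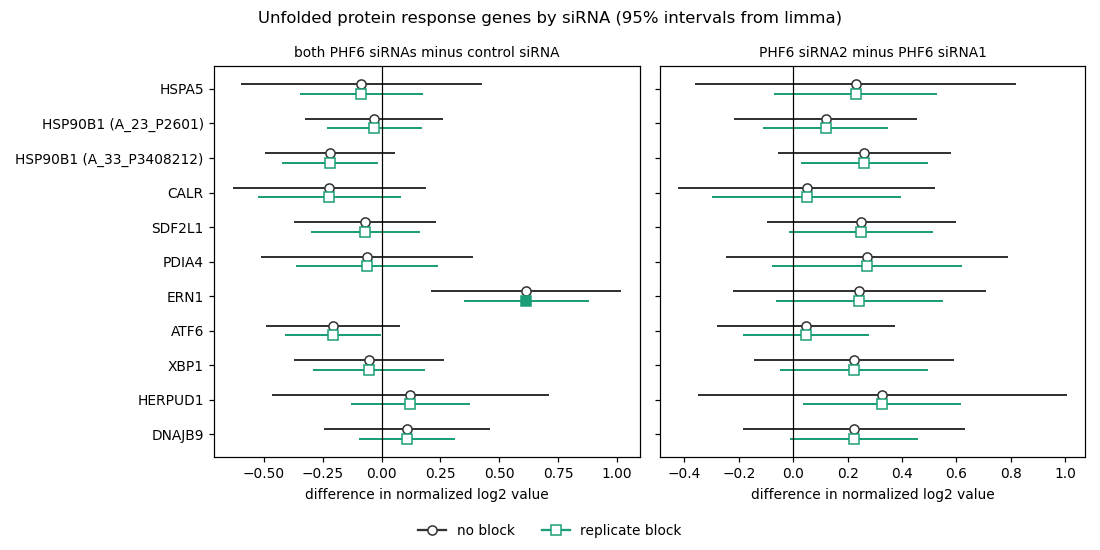
Differences in normalized log2 value (horizontal axes) for each probe with 95% intervals from limma, without a block (black circles) or with a block for replicate number (green squares); filled symbols have an adjusted p under 0.05. Only *ERN1* with the block is filled, at 0.61, and all 11 probes lie above 0 for siRNA2 minus siRNA1.

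Between the siRNAs, limma called none of the 10 genes and 0% of all probes. An unadjusted p under 0.05 was seen for 844 of 33585 probes, fewer than that threshold would give with no difference at all. All 11 probes were higher with siRNA2 than with siRNA1, by 0.05 (*ATF6* and *CALR*) to 0.33 (*HERPUD1*). The median over the 10 genes was 0.23, against 0.03 for all genes tested. Array by array, *SDF2L1* was the only one of the 10 genes in which all 3 siRNA2 arrays lay above all 3 siRNA1 arrays, as was the case for 3.46% of probes with values on every array. Its siRNA1 values were 13.66, 13.62 and 13.22 and its siRNA2 values 13.71, 13.76 and 13.79. With the replicate block 3248 probes had an unadjusted p under 0.05 from limma, and 13 probes were called, none of them of the 10 genes. The 11 probes share the arrays, so their common sign is not 11 separate results.

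The same genes also differed between replicate numbers. *HSPA5*, *HERPUD1*, *PDIA4* and *DNAJB9* were lower in replicate 3 than in the mean of replicates 1 and 2 by log2 differences of -0.62, -0.70, -0.46 and -0.35. They are 4 of 10 genes, in a comparison in which limma called 11142 probes, 33.2%, and called 18.7% lower. All 11 probes had negative differences, with a median of -0.24 over the 10 genes and of -0.03 over all genes tested.

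In *HERPUD1* the 3 values of replicate 3 lay between 14.54 and 14.74 and the 6 values of replicates 1 and 2 between 14.82 and 15.65, so that the groups did not overlap. The log2 difference was -0.70 (SE 0.11, limma adjusted p = 0.00245), and the linear value fell by 38.5%. In *HSPA5* replicate 3 lay between 9.41 and 9.71 and replicates 1 and 2 between 9.87 and 10.45. The log2 difference was -0.62 (SE 0.12, limma adjusted p = 0.00459), and the linear value fell by 34.8%. Both calls held under all 19 alternative settings. These genes carry element II and the ER stress element in the promoter windows shown above, the other called genes carry neither, and *HSP90B1*, *CALR*, *XBP1* and *SDF2L1*, which carry one or the other, were not called.

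*PDIA4* (log2 difference -0.46, SE 0.13, limma adjusted p = 0.0263) had 10.36, 10.39 and 10.68 in replicate 3 and 10.69 to 11.24 in the others, so that the nearest arrays almost met. Its call held in 11 of 19 alternative settings and was lost, among others, with scaling to the 75th percentile (-0.26, adjusted p = 0.222), without control replicate 3 (adjusted p = 0.141) and with VSN on the processed signal (adjusted p = 0.0969). *DNAJB9* (log2 difference -0.35, SE 0.09, limma adjusted p = 0.0154) had 11.94 to 12.16 against 12.25 to 12.68. Its call held in 16 of 19 settings and was lost with scaling to the 75th percentile (-0.24, adjusted p = 0.113), without control replicate 3 (adjusted p = 0.0713) and without siRNA2 replicate 3 (adjusted p = 0.099). *ATF6* and the first probe of *HSP90B1* also had every replicate 3 array below the others, with log2 differences of -0.22 and -0.23, and were not called (adjusted p = 0.0874 and 0.0712). Thus 6 of the 11 probes did not overlap in this direction, as did 11.6% of all probes.

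The remaining genes overlapped between replicate 3 and the others. *XBP1* differed by -0.24, *SDF2L1* by -0.22, the second probe of *HSP90B1* by -0.20, *CALR* by -0.18 and *ERN1* by -0.11, and limma's adjusted p-values were between 0.0958 and 0.501. *XBP1* was called lower in 4 of 19 alternative settings, with the lowest adjusted p, 0.0323, in the deposited table, and the first probe of *HSP90B1* in 2 of 20. The direction of *CALR* depended on the scaling, being 0.07 when arrays were scaled to the 75th percentile. That scaling also turned the balance of all calls, from 4854 higher and 6288 lower to 5816 higher and 3754 lower, while the other 10 probes kept a negative sign under it and the calls of *PDIA4* and *DNAJB9* were lost.

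**Figure D3:**
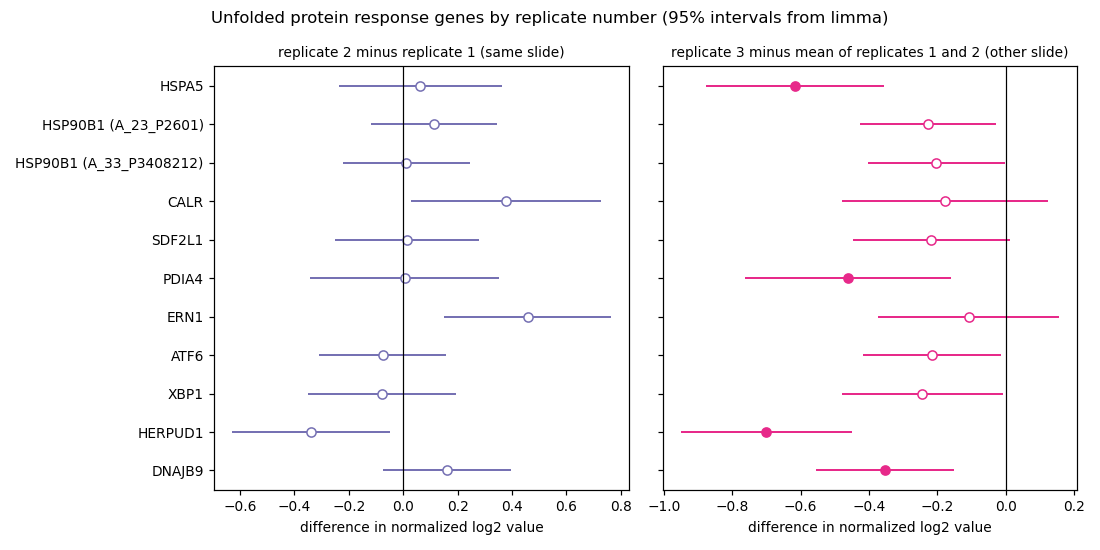
Differences in normalized log2 value (horizontal axes, with different spans) for each probe with 95% intervals from limma, for replicate 2 minus replicate 1 and for replicate 3 minus the mean of replicates 1 and 2; filled circles have an adjusted p under 0.05. *HERPUD1*, *HSPA5*, *PDIA4* and *DNAJB9* are filled on the right, and all 11 probes lie below 0 there.

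Between replicates 2 and 1, which share a slide, limma called none of the 10 genes and 2854 probes, 8.5%. *ERN1* had the largest positive difference, 0.46 (SE 0.14, limma adjusted p = 0.0681), with means of 7.84 in replicate 2 and 7.39 in replicate 1. It was called under 3 of 19 alternative settings. *CALR* was next with 0.38 (adjusted p = 0.168), its replicate 2 mean being raised by the control array at 16.37. *HERPUD1* had the largest negative difference, -0.34 (adjusted p = 0.137), with means of 15.17 and 15.51, so that its order over the replicate numbers was 1, 2 and 3 from high to low. The step from 1 to 2 went the same way in all 3 groups (95% interval -0.62 to -0.05) and did not pass the adjusted threshold. The other 8 probes lay between -0.08 and 0.16.

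The pathway around these genes was followed in 5 lists with 95 genes, the 10 included, of which 93 were tested. *ERO1B* and *TNFRSF10B* were not well above background on any array. For both siRNAs against control, limma called 0 of the 93 genes, against 0.00681% of all genes tested. The list medians lay between -0.06 for chaperones and folding enzymes and 0.05 for PERK arm effectors and ER stress death genes (the PERK arm list). The median of all genes was close to these, at -0.04. With the replicate block *ERN1* was the only call among the 93, 1.08%, against 2.37% of all genes in that fit.

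After *ERN1*, the sensor and transcription factor list had its second highest value in *NFYA*, a subunit of the NF-Y factor that binds CCAAT. Its control values were 9.34, 9.34 and 9.27, its siRNA1 values 9.62, 9.83 and 9.83, and its siRNA2 values 9.73, 10.24 and 9.45. All 6 siRNA arrays lay above the controls, as was the case for 1.84% of probes with values on every array. The log2 difference of 0.47 (SE 0.16) was not called by limma (adjusted p = 0.645). *EIF2AK3*, which encodes PERK, had control values of 8.84, 9.25 and 8.95, siRNA1 values of 8.52, 8.56 and 8.75, and siRNA2 values of 9.19, 8.87 and 9.34. Its difference for both siRNAs was -0.14, with means of 9.01 for control siRNA, 8.61 for siRNA1 and 9.14 for siRNA2. Every siRNA1 array lay below its own control. All 3 siRNA2 arrays lay above the siRNA1 arrays, as was the case for 3.46% of probes with values on every array. The siRNA2 mean exceeded the siRNA1 mean by 0.52 (unadjusted p = 0.0097), which limma did not call after adjustment.

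In the PERK arm list *BBC3*, which encodes the death protein PUMA, was lowest. All 6 siRNA arrays fell short of the control of their replicate number, and the log2 difference was -0.42 (SE 0.46). Limma did not call it (adjusted p = 0.877), nor did it in any of 28 alternative settings, where the lowest adjusted p was 0.0514. *ATF3*, a stress transcription factor, was next at -0.17. *TRIB3*, a pseudokinase that ATF4 and DDIT3 induce, and *CHAC1*, which degrades glutathione, were highest at 0.25 and 0.12, with SEs of 0.59 and 0.45.

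*TXNDC5* and *PDIA5*, both disulfide isomerases, were the lowest chaperones at -0.23 and -0.24. For *TXNDC5* that value came from siRNA1, with means of 10.65 for control siRNA, 10.12 for siRNA1 and 10.73 for siRNA2. Among the chaperones *HYOU1*, the exchange factor of BiP, and *DNAJC3*, an inhibitor of PERK, were highest at 0.11 and 0.07. In ER-associated degradation *VCP*, the segregase, and *DERL1*, a channel component, were lowest at -0.19 and -0.17, and *UBE2J1*, an E2 enzyme, was highest at 0.13. In the translocon and export list *SEC63* and *SPCS3* were highest at 0.18 and 0.16, and *SEC23B* and *KDELR3* were lowest at -0.16 and -0.15.

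**Figure D4:**
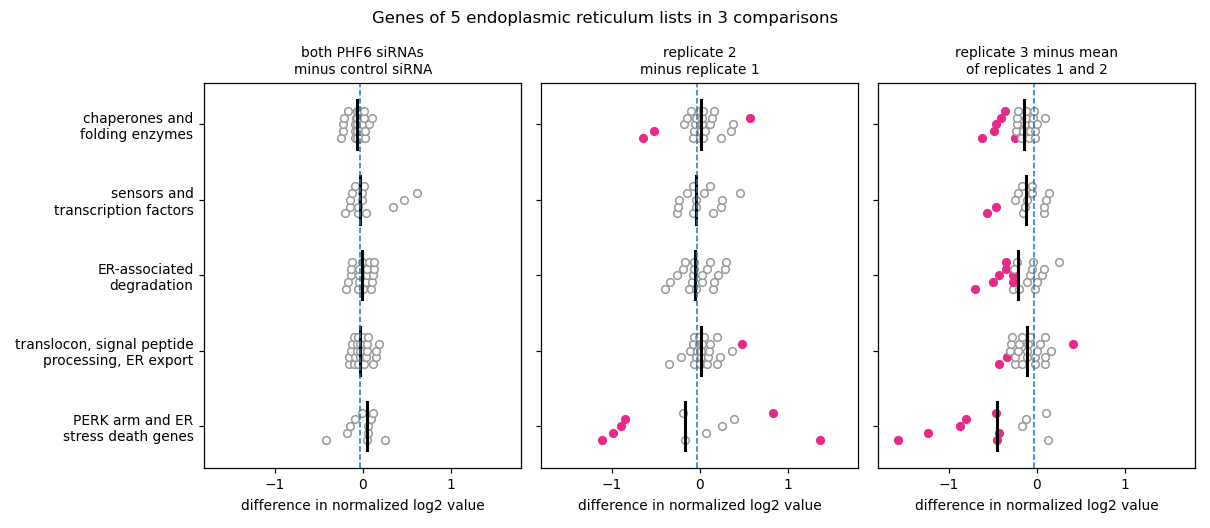
Difference in normalized log2 value (horizontal axes) of every tested gene of the 5 lists in 3 comparisons, with pink filled circles for an adjusted p under 0.05 from limma, black bars for list medians and a dashed blue line for the median of all genes tested. No gene is called by siRNA, while 24 of the 25 genes called in replicate 3 lie to the left of 0.

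In replicate 3, limma called 25 of the 93 genes, 1 higher and 24 lower, that is 26.9% against 29.9% of all genes tested, so that the share of calls was not above that of other genes. Of all 14679 genes tested, 1664 were called higher and 2724 lower, so that the calls of the lists lay more to the lower side. This difference in balance was not tested. The count was 11 with scaling to the 75th percentile, 12 without siRNA2 replicate 3 and 34 in the deposited table. By list, it fell from 6 to 1 for chaperones and from 7 to 4 for the PERK arm without siRNA1 replicate 3, and from 7 to 3 for degradation and from 3 to 0 for the translocon without siRNA2 replicate 3. Of the chaperones and folding enzymes 6 of 24 were called lower. Beside *HSPA5* and *PDIA4* these were *MANF*, a BiP-binding protein, at -0.48, *FKBP2* and *PPIB*, both prolyl isomerases, at -0.40 and -0.25, and *SIL1*, a BiP exchange factor, at -0.36. Of 19 alternative settings the calls held in 16 (*MANF*), 16 (*FKBP2*), 8 (*PPIB*) and 17 (*SIL1*). Of the degradation list 7 of 20 were called lower. Beside *HERPUD1* and *DNAJB9* these were the mannosidase-like *EDEM1*, *EDEM2* and *EDEM3* at -0.50, -0.27 and -0.27, the lectin *OS9* at -0.43 and *UBE2J1* at -0.35. Their calls held in 16 of 19 (*EDEM1*), 7 of 19 (*EDEM2*), 11 of 20 (*EDEM3*), 19 of 19 (*OS9*) and 16 of 19 (*UBE2J1*) alternative settings. In the translocon and export list *SSR2* and *KDELR1* were lower at -0.34 and -0.43, and *SRPRB*, the membrane subunit of the signal recognition particle receptor, was higher at 0.41. In the sensor and transcription factor list *ATF4*, described below, and *CREB3L2* were called lower. *CREB3L2* differed by -0.46 (SE 0.10, limma adjusted p = 0.0074), a call held in 19 of 20 alternative settings.

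Among the list genes, the largest differences by replicate number stood in the PERK arm list. The name of that list is a label, since PERK activity was not measured, and what moved these genes was not tested. *ATF4* (A_23_P120933), the transcription factor of the PERK branch, had 17.22, 17.09 and 17.18 in replicate 1 (control, siRNA1 and siRNA2). It had 16.94, 16.71 and 17.08 in replicate 2, and 16.41, 16.35 and 16.66 in replicate 3. In replicate 3 it was lower by a log2 difference of -0.56 (SE 0.09, limma adjusted p = 0.0024), and it was not called between replicates 2 and 1 (-0.26, adjusted p = 0.157). *TRIB3* (A_23_P210690) had 15.36, 15.57 and 15.80 in replicate 1, 14.38, 13.86 and 15.53 in replicate 2, and 13.43, 13.48 and 13.60 in replicate 3. It differed by -1.58 in replicate 3 (adjusted p = 0.00145), a call held in all 19 alternative settings, and by -0.99 between replicates 2 and 1 (adjusted p = 0.0364).

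*BBC3* (A_23_P382775) differed by -1.23 in replicate 3 (adjusted p = 0.000776) and by -0.85 between replicates 2 and 1 (adjusted p = 0.0037), and *SESN2*, a leucine-binding stress protein, by -0.87 and -0.89. *CHAC1* fell by 0.80 and by 1.12 on the log2 scale, calls that held in 14 of 20 and in 12 of 20 alternative settings. Its means were 11.09, 9.97 and 9.73 in replicates 1, 2 and 3, so that the fall in replicate 3 came mostly from replicate 1. Both siRNA arrays of *CHAC1* were higher in replicate 3 (9.90 and 10.23) than in replicate 2 (9.60 and 10.11). *CHAC1*, *SESN2*, *BBC3* and *DDIT3* all overlapped between replicate 3 and the others. In replicate 3, *DDIT3*, *ATF3* and *PPP1R15A* differed from the mean of replicates 1 and 2 by -0.43, -0.47 and -0.45, and all 3 were called. The calls held in 9 of 19, 16 of 20 and 7 of 19 alternative settings, with adjusted p-values of up to 0.189, 0.175 and 0.274. The last came from replicate 2 alone, since *PPP1R15A* lay between 9.16 and 9.77 in replicate 3 and between 9.21 and 9.39 in replicate 1. *PPP1R15A*, the phosphatase subunit that ends the PERK signal, and *PMAIP1*, which encodes the death protein NOXA, were higher in replicate 2 than in replicate 1 by 1.37 and 0.83. Thus 7 of 11 tested genes of this list were called lower in replicate 3, beside 2724 of all 14679 genes tested. Between replicates 2 and 1, where 587 of all genes were called higher and 822 lower, the list had 2 called higher and 4 called lower. Without siRNA1 replicate 1 the latter count fell from 6 to 2, and the call of *TRIB3* between replicates 2 and 1 was lost in 10 of 19 settings. Over the 93 genes, 10 were called between replicates 2 and 1, 10.8% against 9.6% of all genes tested, and 2 without siRNA1 replicate 1. The calls outside the PERK arm list were *ERO1A*, the oxidase of disulfide formation, at 0.57, *SPCS3* at 0.48, *FKBP11* at -0.51 and *PDIA5* at -0.64.

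**Figure D5:**
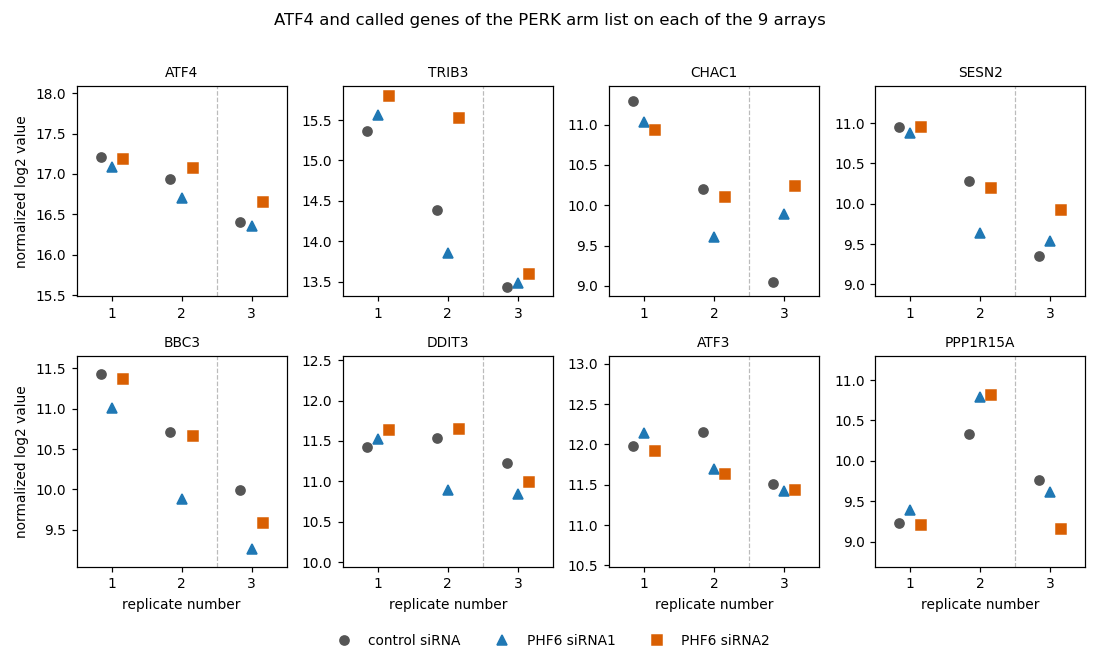
Normalized log2 value (vertical axis, same span in every panel) on each array of *ATF4* and of the 7 genes of the PERK arm list called in replicate 3, by replicate number (horizontal axis), with control siRNA as grey circles, *PHF6* siRNA1 as blue triangles and *PHF6* siRNA2 as orange squares; the dashed line separates the slides. *TRIB3* lies between 15.36 and 15.80 in replicate 1 and between 13.43 and 13.60 in replicate 3, whereas *PPP1R15A* is highest in replicate 2.

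Over the 9 arrays the 10 genes differed in how alike they were, and pairs of other genes were not counted for comparison. Of their 45 pairs, Pearson's r ran from -0.51 to 0.90 with a median of 0.62, and it was above 0.5 in 31 pairs. After the mean of each replicate number was removed the median was 0.43, with 14 pairs above 0.5. The genes most like *HSPA5* among 14661 compared over these 9 arrays were *RNF115*, *S100PBP*, *DNAJC1*, *PECR* and *PMEPA1*, with r from 0.966 to 0.968. Of the other members, *HERPUD1* came nearest to *HSPA5* at r = 0.85 and rank 423. It was followed by *HSP90B1* at 0.82 (rank 705), *DNAJB9* at 0.82 (rank 710) and *XBP1* at 0.80 (rank 930). *PDIA4*, *SDF2L1*, *ATF6* and *CALR* had ranks of 2188, 2404, 3206 and 5670, and *ERN1* was farthest at 0.24 (rank 6469). The arrays share slides and replicate numbers, and these values are descriptions without a test.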

How the data were processed

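RNA of ALL-SIL cells was hybridized to 9 one-colour arrays, 3 per group, and groups came from the sample titles. The authors deposited the spot intensity read by Agilent Feature Extraction (10.5.1.1 per the file headers, 9.1 per the submitters' processing notes), flags of 0 or 1 per spot (well above background, outlier, saturated), and a table of log2 values normalized with VSN, used as an alternative. The 10 genes and the gene lists were chosen with earlier results of these data known. Here the VSN model was fitted by own code to the median intensity without background subtraction (7 iterations, trimming quantile 0.9), outlier spots were left out and repeated spots averaged; saturated spots were absent. Testing covered probes flagged well above background on 3 or more arrays, using limma 3.58.1 and statmod 1.5.0 under R 4.3.3, with Benjamini-Hochberg adjustment over all tested probes and a threshold of 0.05, in code tested on simulated data. A gene of a list was represented by its brightest tested probe. Comparisons were both siRNAs against control and siRNA2 against siRNA1 (3 groups, no block), and replicate 2 against 1 and replicate 3 against the mean of both (treatment group in the model). Named genes were the 10 with all probes, *PHF6*, the 2 highest and 2 lowest of each list by siRNA and between replicates 2 and 1, every list gene called, and the 5 genes most like *HSPA5*. *RTCB*, *NFYC*, *CREB3*, *AUP1*, *FAF2*, *SRP54* and *SEC62* also met this rule, were not called and are not described. *EIF2AK3*, as the third sensor, and *DNAJB11* and *SEC61A1* were named after their values were seen. Symbols came from matching transcript identifiers to RefSeq, used for names only, since the array annotation is on hg19.

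Deviations from the group means correlated at 0.31 to 0.75 in 9 pairs of arrays with the same number and at -0.57 to 0.13 in 18 pairs with different numbers, so the numbers, given in the sample titles, were taken to pair the samples. Alternatives were other intensities and normalizations (normexp with an offset of 50 and quantile, 75th percentile, the deposited table), other filters, outlier spots kept, a trended robust prior, blocks by replicate number or slide, only the siRNA arrays, no treatment group, the mean of a gene's probes, and each array left out. Arrays have no read depth, and their number limits the precision.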

Additional observations from a re-analysis of the deposited data

Results flagged for a closer look

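Of the 93 tested genes of the lists, 3 lay below their own control with siRNA1 and above it with siRNA2 in every replicate number, and none of them is a member of the 10 genes. The share of all genes with this pattern was not counted, so the 3 genes are a description only. By group means, siRNA2 exceeded siRNA1 in 76 of the 93 genes and in 8439 of all 14679 genes tested. Both siRNAs share the control of each replicate number. *DNAJB11* (A_23_P166899), a BiP cochaperone, had 10.69, 10.87 and 10.68 with control siRNA in replicates 1, 2 and 3, 10.61, 10.52 and 10.64 with siRNA1, and 10.96, 10.97 and 10.94 with siRNA2. Its siRNA2 mean exceeded its siRNA1 mean by 0.3626 on the log2 scale. *SEC61A1* (A_23_P212458), the channel subunit of the translocon, had 10.72, 10.87 and 10.60 with control siRNA, 10.69, 10.71 and 10.58 with siRNA1, and 10.91, 11.10 and 10.72 with siRNA2, a difference between the siRNAs of 0.2467. *SSR2* (A_24_P282578), a subunit of the translocon-associated complex, had 13.15, 13.28 and 12.87 with control siRNA, 13.14, 13.15 and 12.81 with siRNA1, and 13.31, 13.41 and 13.02 with siRNA2, a difference of 0.2146. That the siRNAs moved these genes in opposite ways from control was not tested. The siRNA1 arrays of *DNAJB11* in replicate 3, of *SSR2* in replicate 1 and of *SEC61A1* in replicates 1 and 3 lay within 0.05 of their control. Limma called none of the 3 genes between the siRNAs.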

How the results depend on the processing

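Called probes for both siRNAs (3) were 5 with scaling to the 75th percentile or with normexp, 24 with the slide as a block and 919 with the replicate block, and between the siRNAs (0) they were 13 with the replicate block, 6 with the slide block and 4 with probes well above background on all arrays. In combinations chosen after seeing the data, the blocked counts were 238 with VSN on the processed signal, 735 and 10 with VSN on background-subtracted signal, 272 with the 75th percentile, 1297 and 9 with normexp, and 868 and 10 with the deposited table (both siRNAs first, siRNA2 against siRNA1 second). With the block, the counts were 45 and 4 without replicate number 1, 5 and 0 without number 2, and 671 and 25 without number 3. Leaving out each array gave 2 to 3 and 0 to 11 without a block (11 without siRNA1 replicate 3), 747 to 2859 for replicate 2 against 1 (747 without siRNA1 replicate 1, 762 without siRNA1 replicate 2) and 4673 to 11329 for replicate 3 (4673 without siRNA2 replicate 3). Between replicates 2 and 1 (2854) the count was 1836 with the 75th percentile, 1197 with no filter and 1377 with no treatment group. The cause of these changes was not tested, apart from the smaller number of arrays when some are left out. The replicate block changed the call of *ERN1* for both siRNAs and of no other of the 10 genes; all its 28 alternatives kept the sign, at 0.47 to 0.72, with adjusted p from 0.022 to 0.998.

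The other results of named genes and list counts had 2622 values that kept sign and side of the threshold (for counts, within 1.5 times), 51 that passed and 170 that no longer passed it, and 54 that changed sign, of 2897. None of the sign changes concerned a called value. Most came from leaving out 1 array, and the ranges over the 9 arrays left out in turn follow for the probes concerned. For both siRNAs against control, values for the 10 genes ran from -0.24 to 0.052 (*HSPA5*), -0.12 to 0.092 (*HSP90B1*, A_23_P2601), -0.37 to 0.045 (*CALR*), -0.17 to 0.0004 (*SDF2L1*), -0.29 to 0.14 (*PDIA4*), -0.19 to 0.031 (*XBP1*), -0.12 to 0.30 (*HERPUD1*) and -0.037 to 0.24 (*DNAJB9*). For list genes they ran from -0.0067 to 0.21 (*DNAJC3*), -0.016 to 0.29 (*UBE2J1*), -0.032 to 0.40 (*SEC63*), -0.0075 to 0.33 (*SPCS3*), -0.23 to 0.73 (*TRIB3*) and -0.45 to 0.67 (*CHAC1*). Control replicate 3 was the array whose absence turned *HERPUD1*, *DNAJB9*, *DNAJC3*, *UBE2J1*, *SEC63*, *TRIB3* and *CHAC1*, and control replicate 2 turned *HSPA5*, *HSP90B1*, *CALR* and *PDIA4*, though other arrays also turned some of them. For siRNA2 against siRNA1 the ranges were -0.025 to 0.16 (*CALR*), -0.0018 to 0.38 (*ERN1*) and -0.0085 to 0.089 (*ATF6*), and for replicate 3 -0.19 to 0.039 (*ERN1*). For replicate 2 against 1 they were -0.053 to 0.21 (*HSPA5*), -0.041 to 0.0996 (*HSP90B1*, A_33_P3408212), -0.067 to 0.083 (*SDF2L1*), -0.19 to 0.21 (*PDIA4*) and -0.17 to 0.055 (*XBP1*).

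Normexp turned 0.059 (*HSP90B1*), 0.040 (*XBP1*) and 0.018 (*SDF2L1*) positive for both siRNAs, with and without the replicate block, and gave -0.0036 (*SDF2L1*) for replicate 2 against 1. Scaling to the 75th percentile gave 0.072 (*CALR*) for replicate 3. With the block, both siRNAs gave -0.33 (*CHAC1*) without replicate number 3, 0.13 (*PDIA4*) and 0.054 (*HSP90B1*) without number 2 and -0.017 (*HYOU1*) without number 1, and siRNA2 against siRNA1 gave -0.028 (*CALR*) without number 1.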
